A study of Homo sapiens with 4 samples.

Results

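The 10 genes described here encode the secreted factors VEGFA, VEGFB, VEGFC, PGF, ANGPT1, ANGPT2, ANGPTL2 and ANGPTL4 and the neuropilins NRP1 and NRP2. They were chosen by name as a family, and all 10 were found among the 19610 gene symbols of the mRNA table, with 69 of its 79798 transcripts. Their levels were measured in hFOB 1.19 cells, a human fetal osteoblast line, in 4 libraries made from total RNA. The protocols describe RNase R, which digests linear RNA, for the mRNA libraries, and if so used the values would reflect what is left of linear RNA. The day 0 library is the control, taken at the lower temperature at which the line is grown. By the methods of the study, those of days 3, 6 and 9 come from cells kept in the same medium with serum at the higher temperature for mineralization. Time at the higher temperature and mineralization therefore cannot be told apart from the shift in temperature in a comparison with day 0, and only days 3, 6 and 9 share 1 temperature. No agent other than the temperature is given for these libraries. The line was immortalized with a temperature-sensitive viral T antigen, and all libraries derive from this 1 established line.

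Members of the VEGF family are secreted growth factors of blood and lymphatic vessels. VEGFA acts mainly through the receptor KDR, VEGFB and PGF bind FLT1, and VEGFC drives lymphatic growth through FLT4. The neuropilins are co-receptors that bind VEGF forms and class 3 semaphorins. Angiopoietins act on the endothelial receptor TEK, where ANGPT1 stabilizes vessels and ANGPT2 often opposes it. The angiopoietin-like proteins share their fold but do not bind TEK, and ANGPTL4 is best known as an inhibitor of lipoprotein lipase. In bone, vessel growth and bone formation are coupled, and osteoblast VEGFA is a known part of that coupling.

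The authors deposited FPKM, that is, fragments per kilobase of transcript, scaled to the mapped fragments of the library, and the values of all transcripts of a symbol were summed. Since FPKM is scaled by length, levels were set side by side between genes. Such comparisons assume that RNase R, if used, left the same part of each RNA, which was not tested. Each time point has 1 library, so no value has a replicate error, and time points were compared by size alone, without tests or p-values. A gene was called higher or lower when the log2 ratio of (FPKM + 1) was at least 1 or at most -1, a 2-fold limit, and only among the 12859 symbols with at least 1 FPKM in any library. A gene under 1 FPKM on day 0 could pass this filter only through a later library. With 1 FPKM added, such a gene could not be called lower against day 0. The summed FPKM of a library lay between 538072 and 617857, and 11956 to 12421 symbols reached 1 FPKM. In symbols with 1 listed transcript and under 0.15 FPKM, a difference between libraries was often a ratio of small whole numbers, as counts of few fragments give. With 1 unit per library, 85.8%, 66.7% and 55.7% of such symbols fitted within 0.2% on days 3, 6 and 9 against day 0. By these units the fragment totals behind the scaling were 0.785, 0.844 and 0.971 times that of day 0. The unit was the most common ratio, shared by 88, 51 and 42 of the 330, 363 and 359 symbols compared. Symbols at the unit fit by construction, and no rate of fit without a shared unit was taken. The percentages are thus no test of the totals. Clean read counts given in the paper differ less between the days, so these totals are not a measure of sequencing depth. Fragment counts of multi-transcript genes could not be recovered, so no counting interval is given. In bulk RNA, fewer cells of a type and less RNA per cell cannot be told apart.

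Of the 10 genes, 9 reached 1 FPKM in any library, and ANGPT2 did not. ANGPT1 reached it only in later libraries, so it could not be called lower against day 0. On day 3, 5 genes were called higher than on day 0, against 8.13% of all symbols, and 0 were called lower, against 5.3%. On day 6, 6 were higher, where 9.01% of all symbols were, and 0 were lower, where 6.42% were. On day 9, 6 were again higher, beside a background of 9.6%, and 0 were lower, beside 6.52%. VEGFA, VEGFC, ANGPTL2 and NRP2 were higher on all 3 later days, NRP1 and ANGPTL4 on days 6 and 9, and PGF on day 3 alone. The 3 comparisons share the day 0 library. The median log2 ratios of the 9 genes were 1.03, 1.42 and 1.39. Over all 12859 symbols they were -0.08, -0.08 and -0.09.

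**Figure D1:**
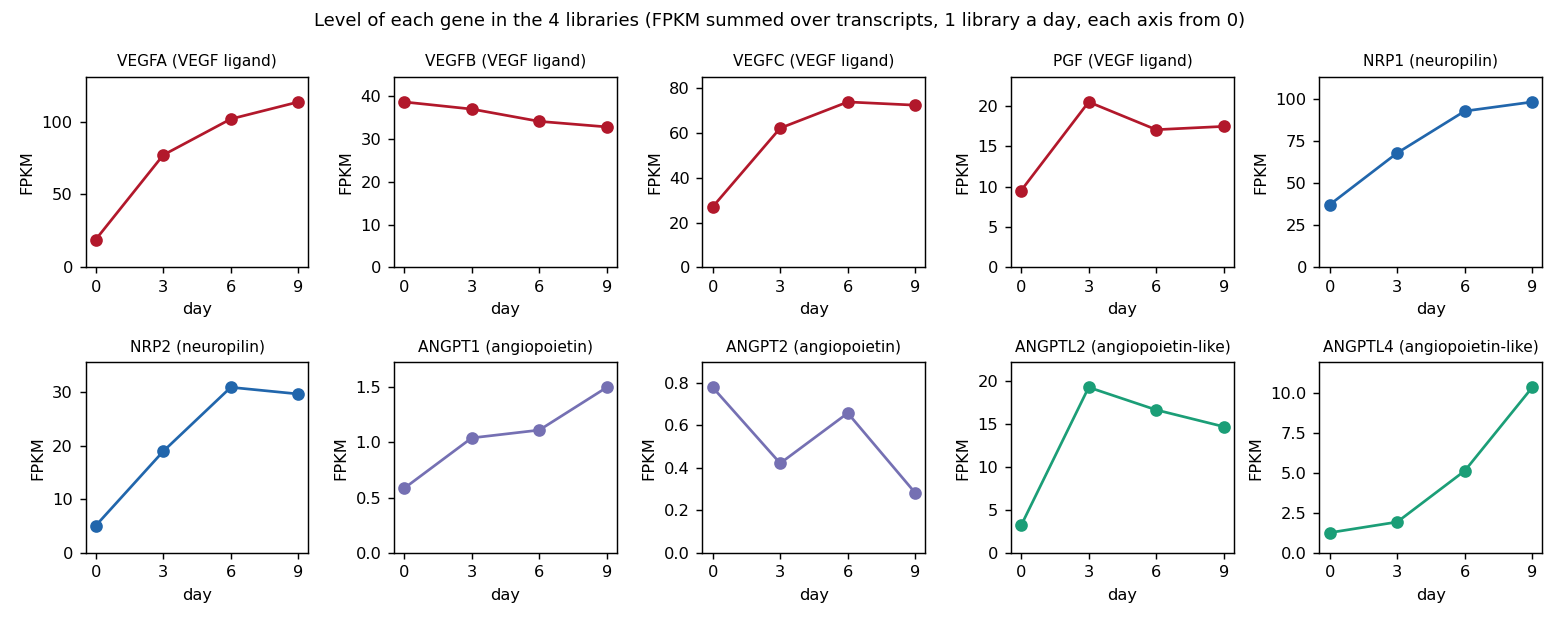
FPKM (vertical axes, each from 0) against day (horizontal axes) for the 10 genes, where each point is 1 library and colours mark VEGF ligands, neuropilins, angiopoietins and angiopoietin-like genes. VEGFA climbed from 19.1 to 113 FPKM, VEGFB stayed between 32.8 and 38.6, ANGPTL2 was highest on day 3 and ANGPTL4 on day 9.

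Promoter sequences from RefSeq (GRCh38.p14) were matched by symbol, after windows on a single chromosome were left out. This gave 6 of the 10 genes, in 7 windows of the 250 bases before a start site. VEGFA, NRP1, ANGPT1 and ANGPT2 are not shown. The windows of ANGPTL4 (past the limit on days 6 and 9), NRP2 (past it on every later day) and VEGFB (inside it on all of them) are given so that genes of unlike course can be read side by side. They lie at chr19:8363905-8364154 (plus strand), chr2:205682251-205682500 (plus strand) and chr11:64234334-64234583 (plus strand). Capitals mark letters of ACGTG or of GGGCGG, on either strand and with overlaps counted. ACGTG is a form of the core of the site bound by HIF factors, and GGGCGG is the GC box bound by SP1. Other forms of the HIF core were not searched for and are not marked, so a window without ACGTG may still hold another form.
ANGPTL4: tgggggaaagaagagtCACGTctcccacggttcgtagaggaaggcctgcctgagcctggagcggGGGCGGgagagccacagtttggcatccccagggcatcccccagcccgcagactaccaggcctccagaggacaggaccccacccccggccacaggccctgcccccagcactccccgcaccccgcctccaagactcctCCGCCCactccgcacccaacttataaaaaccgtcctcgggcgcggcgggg
NRP2: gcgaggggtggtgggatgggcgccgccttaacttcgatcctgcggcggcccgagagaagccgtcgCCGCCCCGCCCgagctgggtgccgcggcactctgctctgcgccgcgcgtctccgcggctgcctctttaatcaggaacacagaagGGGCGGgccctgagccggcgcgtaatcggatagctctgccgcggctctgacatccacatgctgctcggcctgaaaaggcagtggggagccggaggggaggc
VEGFB: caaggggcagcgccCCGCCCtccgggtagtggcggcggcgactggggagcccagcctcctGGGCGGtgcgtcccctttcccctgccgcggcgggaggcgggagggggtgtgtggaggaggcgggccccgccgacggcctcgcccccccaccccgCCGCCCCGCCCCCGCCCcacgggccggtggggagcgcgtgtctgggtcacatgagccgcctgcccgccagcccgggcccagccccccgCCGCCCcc

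ACGTG was present in 1 of the 6 genes, ANGPTL4, once at position -234 from the start site on the reverse strand. It was present in 18.5% of the 35116 RefSeq windows of the same length. GGGCGG was present in all 6 genes, 2 to 6 times a window, and in 42.6% of all windows. VEGFB, whose level differed least among the VEGF ligands, had the 6 matches. A match says that the letters are there, and nothing was measured here on binding.

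VEGFA (ENSG00000112715), the main growth factor of blood vessels, had 19.1, 77.0, 102 and 113 FPKM on days 0, 3, 6 and 9. Its lowest level was that of day 0, and each later library exceeded the one before it. The log2 ratios to day 0 were 1.96, 2.36 and 2.51, a 5.95-fold difference in FPKM by day 9, and 150 of the 12859 symbols, VEGFA included, had a ratio at least as large that day. Among the expressed symbols, 59.1% had a lower level than VEGFA on day 0 and 94.3% on day 9.

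VEGFC (ENSG00000150630), the lymphatic growth factor, had 27.0, 62.1, 73.8 and 72.3 FPKM on days 0, 3, 6 and 9. The log2 ratios were 1.17, 1.42 and 1.39. The later libraries all held over 2-fold more than day 0, and days 6 and 9 differed little (log2 ratio -0.03). VEGFC is listed with 1 transcript, so its value does not rest on a division of reads between isoforms.

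PGF (ENSG00000119630), the placental growth factor, had 9.53 FPKM on day 0 and 20.5, 17.1 and 17.5 on days 3, 6 and 9. Its log2 ratio of 1.03 on day 3 stood just past the limit, and those of 0.78 and 0.81 on days 6 and 9 stood just inside it. All later libraries lay above day 0, with day 3 the highest.

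VEGFB (ENSG00000173511), a ligand of FLT1 linked to fatty acid handling in muscle and heart, was the VEGF gene with the highest level on day 0. It had 38.6, 36.9, 34.1 and 32.8 FPKM, with log2 ratios of -0.06, -0.18 and -0.23. These differences were well inside the limit, and on day 3 the sign turned when libraries were rescaled to the same summed FPKM (0.13) or the same median (0.03).

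The make-up of the VEGF ligand RNA differed accordingly. The 4 ligands together had 94.1 FPKM on day 0 and 236 on day 9. VEGFA made up 20.2%, 39.2%, 44.9% and 48.1% of that sum on days 0, 3, 6 and 9. The share of VEGFB was 41.0% on day 0 and 13.9% on day 9, while VEGFC kept between 28.7% and 32.6%. The level of VEGFA was 0.494 times that of VEGFB on day 0 and 3.46 times on day 9. These ratios are taken within a library and do not depend on its scaling.

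NRP1 (ENSG00000099250), a co-receptor for VEGFA and for SEMA3A, had 37.3, 68.1, 93.0 and 98.5 FPKM. Each later library was above the one before, with log2 ratios to day 0 of 0.85, 1.30 and 1.38. On day 3 NRP1 was thus inside the limit, and passed it (1.05) only when libraries were rescaled to the same sum.

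NRP2 (ENSG00000118257), the co-receptor linked to VEGFC and to SEMA3F, started from the lower level of 5.05 FPKM and had 18.97, 30.9 and 29.7 later. Its log2 ratios of 1.72, 2.40 and 2.34 were larger than those of NRP1 on every day. The level of NRP1 was 7.39 times that of NRP2 on day 0 and 3.59, 3.01 and 3.32 times on days 3, 6 and 9. NRP1 remained the more abundant co-receptor in all 4 libraries.

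**Figure D2:**
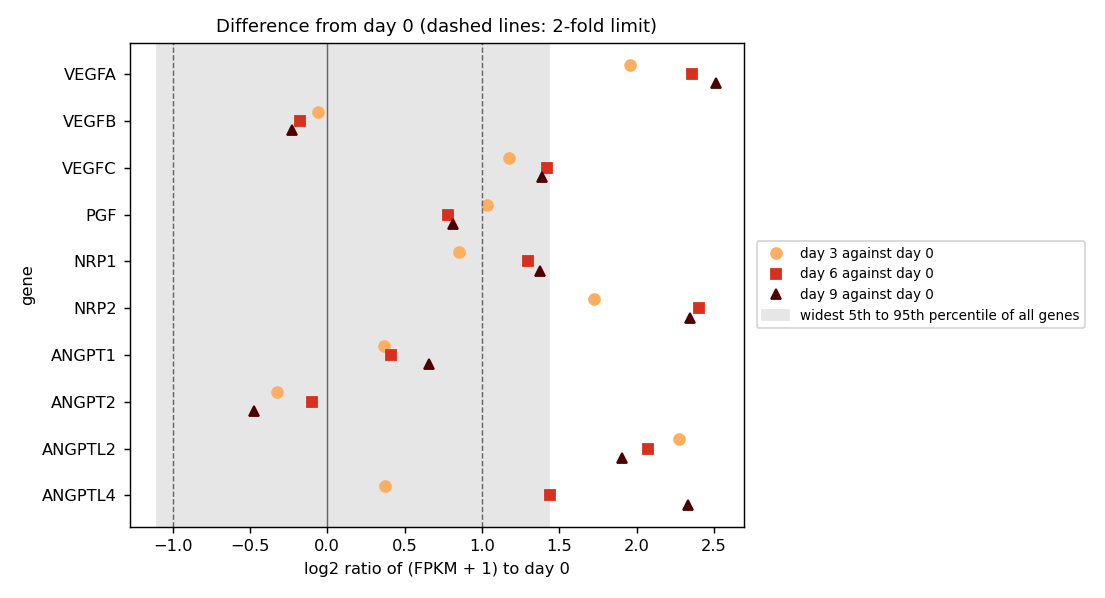
Log2 ratio of (FPKM + 1) to day 0 (horizontal axis) for the 10 genes (vertical axis), with circles for day 3, squares for day 6 and triangles for day 9, each from 1 library a day. Grey spans the widest 5th to 95th percentile of all symbols (-1.10 to 1.44); VEGFA, NRP2 and ANGPTL2 lie to its right on every day, ANGPTL4 clearly so on day 9, and VEGFB and ANGPT2 lie left of 0.

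ANGPTL2 (ENSG00000136859), a secreted protein linked to inflammation and tissue remodelling, had 3.18, 19.2, 16.6 and 14.7 FPKM. Its log2 ratio of 2.28 was the largest of the 10 genes on day 3, and on days 6 and 9 it was 2.08 and 1.91. The highest library was thus the earliest at the higher temperature, with lower values after it.

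ANGPTL4 (ENSG00000167772) also lay above day 0 in all later libraries but went the other way after day 3, with 1.26, 1.93, 5.14 and 10.4 FPKM. The log2 ratios were 0.38, 1.44 and 2.33. Its promoter window was the 1 of 7 that held ACGTG, a match present in 18.5% of all RefSeq windows, and a link to its level was not tested. On day 9 its level was 8.24-fold that of day 0, the largest fold in FPKM of the 10 genes. ANGPTL2 had 9.96 times the level of ANGPTL4 on day 3 and 1.41 times on day 9.

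The angiopoietins were the least abundant of the 10 genes. ANGPT1 (ENSG00000154188), the TEK agonist, had 0.583, 1.04, 1.11 and 1.497 FPKM, and reached 1 FPKM only in the later libraries. Its log2 ratios of 0.37, 0.41 and 0.66 were inside the limit. With 0.1 added to the FPKM in place of 1, the ratio on day 9 was 1.23. ANGPT2 (ENSG00000091879) had 0.777, 0.420, 0.656 and 0.281 FPKM and was not considered expressed. Its values had no steady course, since day 6 lay between day 0 and day 3. In no library did more than 8.03% of the expressed symbols have a lower level than either of them.

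Days 3, 6 and 9 were compared with each other to describe the course at constant temperature. Between day 3 and day 6, only ANGPTL4 was called higher (log2 ratio 1.07), where 0.607% of all symbols were higher and 0.443% lower. Between day 6 and day 9, 0 of the 9 genes were called, beside 0.381% of all symbols higher and 0.163% lower, and ANGPTL4 was nearest to the limit (0.89). Between day 3 and day 9, ANGPTL4 was again the only gene called (1.96), beside 1.39% of all symbols higher and 0.863% lower. Only 38 symbols, ANGPTL4 included, had a ratio at least as large. VEGFA, NRP1 and NRP2 had log2 ratios of 0.55, 0.53 and 0.62 from day 3 to day 9, and ANGPTL2 had -0.37. On the log2 scale, most of the difference from day 0 in VEGFA, VEGFC, ANGPTL2 and NRP2 was therefore present by day 3, whereas most of that in ANGPTL4 came after it.

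The order of the levels changed over the course. On day 0 it was VEGFB, NRP1, VEGFC, VEGFA, PGF, NRP2, ANGPTL2, ANGPTL4, ANGPT2 and ANGPT1. On day 9 it was VEGFA, NRP1, VEGFC, VEGFB, NRP2, PGF, ANGPTL2, ANGPTL4, ANGPT1 and ANGPT2. Without replicates, neighbours in this order such as VEGFB and NRP1 on day 0 (38.6 and 37.3 FPKM) cannot be separated.

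By transcript, the 69 listed forms included 14 at 0 in every library, 9 of them of VEGFA, and 34 with at least 1 FPKM in any library. Of those 34, the numbers called higher on days 3, 6 and 9 were 16, 21 and 20, and the numbers called lower were 1, 2 and 1. Forms under 1 FPKM on day 0 passed only through a later library and could not be called lower. Of all 37418 transcripts of the table with at least 1 FPKM, 9.46%, 10.4% and 10.8% were called higher and 10.6%, 11.4% and 11.0% lower. An estimate for a single isoform depends on how fragments shared by isoforms were divided, so an exact 0 can be a failed estimate.

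VEGFA was listed with 23 transcripts. The leading one, ENST00000615393, had 7.14, 24.8, 36.7 and 36.7 FPKM and carried 32.2% to 37.5% of the VEGFA sum in each library. ENST00000523950 followed a like course, with 4.57, 13.3, 19.1 and 23.9 FPKM. ENST00000621747 stood apart, since it was near 0 on day 0 (0.00051 FPKM) and had 10.4, 22.4 and 22.7 FPKM later, between 13.5% and 22.05% of the sum. ENST00000372077 went the other way, with 3.13 FPKM on day 0 and an entry of 0 on days 3, 6 and 9. ENST00000372067 had 9.93 FPKM on day 3 and under 0.1 in the other libraries. The sum over transcripts was thus carried by several forms. Of the 9 with at least 1 FPKM, 7, 7 and 6 were called higher on days 3, 6 and 9, and 1 was called lower on each. Of all transcripts, 9.46%, 10.4% and 10.8% were called higher. ENST00000372067 was called on day 3 alone, with values near 0 on days 6 and 9 (0.0042 and 0.081 FPKM, against 0.00024 on day 0).

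For NRP1, 11 of 14 transcripts reached 1 FPKM, and 2, 6 and 4 of them were called higher on days 3, 6 and 9, and 0 lower. The shares of all transcripts are those given above. ENST00000265371 of NRP1 lay below day 0 on day 6 (log2 ratio -0.29). Its leading form ENST00000374822 had 8.93, 15.5, 23.5 and 31.5 FPKM. For NRP2, 4, 5 and 6 of the 6 transcripts with at least 1 FPKM were called higher on days 3, 6 and 9, and 0 lower. ENST00000450507 led at 2.24, 5.87, 10.5 and 9.23 FPKM. ENST00000272849 of NRP2 had 0.290 FPKM on day 0 and 5.84 on day 6, and its share of the NRP2 sum was 5.74% on day 0 and between 18.3% and 19.2% later. ANGPTL2 came almost wholly from ENST00000373425 (96.2% to 99.3%) and ANGPTL4 from ENST00000301455, which carried 69.0% on day 0 and at least 91.2% later. PGF was divided between ENST00000555567 (4.88, 10.3, 8.35 and 10.7 FPKM) and ENST00000553716 (4.55, 8.76, 7.72 and 5.24 FPKM). Neither of these 2 forms alone passed the limit on day 3, with log2 ratios of 0.95 and 0.82. The less abundant ENST00000238607 passed it on days 3 and 9 (1.04 and 1.21), with 0.106 FPKM on day 0 and 1.56 on day 9. In VEGFB, the leading ENST00000309422 kept 28.1 to 32.1 FPKM. The second form, ENST00000426086, had 6.84, 4.79, 2.71 and 4.64 FPKM and was called lower on day 6 (-1.08).

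**Figure D3:**
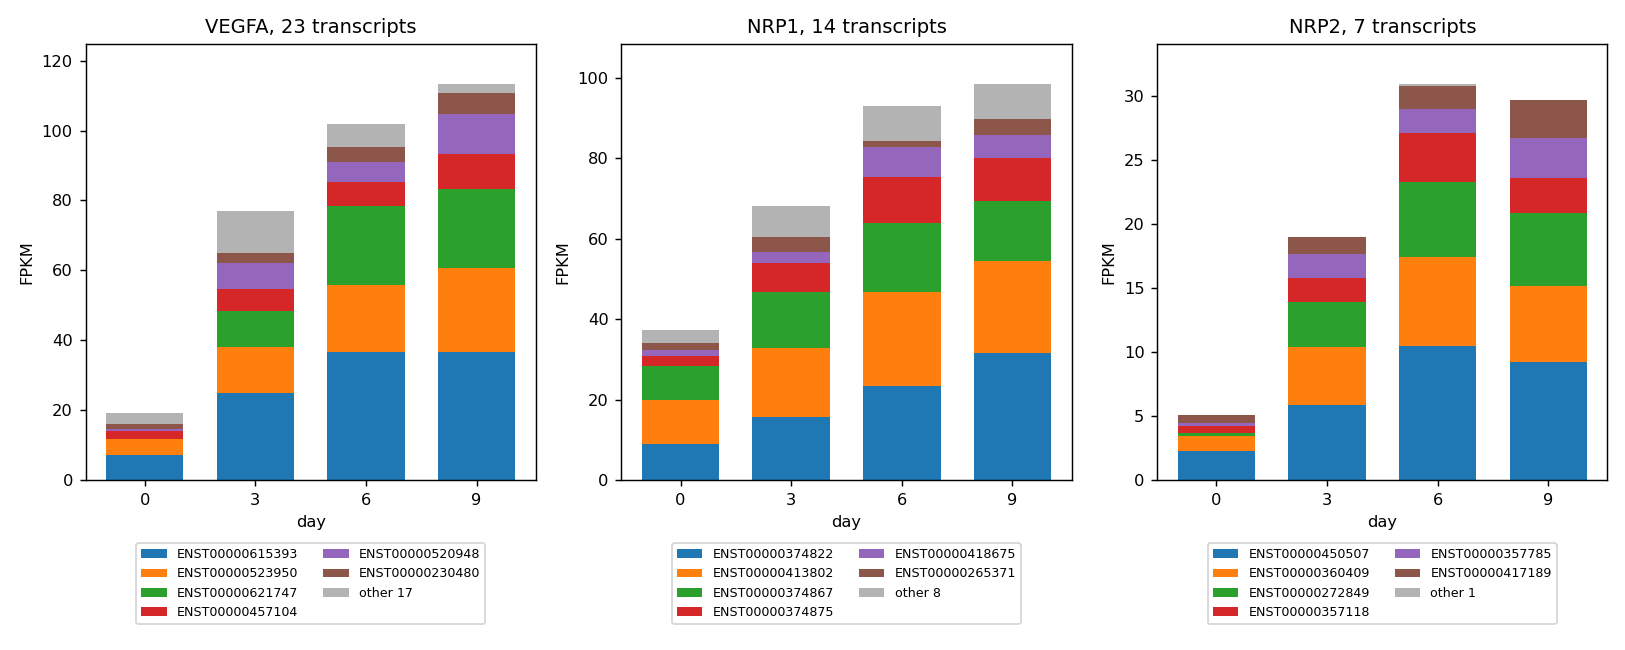
FPKM (vertical axes, from 0) by day (horizontal axes) for VEGFA, NRP1 and NRP2, stacked by transcript, with the 6 transcripts of highest mean FPKM in colour and the rest in grey, 1 library a day. Several transcripts of each gene add to the larger sums on days 3, 6 and 9, and ENST00000621747 (green, left panel) is near 0 in the VEGFA bar of day 0.

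Among the receptors, FLT1 and TEK were the most abundant in every library. FLT1, the receptor of VEGFB and PGF, had 26.3 FPKM on day 0 and 19.5, 19.5 and 19.7 on days 3, 6 and 9, within the limit (log2 ratio -0.40 on day 9). TEK, the angiopoietin receptor, had 9.97, 14.0, 14.5 and 16.6 FPKM, above both of its ligands in every library. KDR had 0.227, 0.726, 1.07 and 1.05 FPKM, and FLT4 never passed 0.747. The orphan receptor TIE1 had 0.618, 1.87, 2.83 and 2.31 FPKM and was called higher on days 6 and 9 (1.24 and 1.03). PTPRB, the phosphatase that restrains TEK, had 0.855 on day 0 and 2.60 on day 9, with a log2 ratio of 0.96. Of the 6 receptor genes, 5 passed 1 FPKM, and 0, 1 and 1 were called higher on days 3, 6 and 9. KDR, PTPRB and TIE1 were under 1 FPKM on day 0. They passed the filter only through later libraries and could not be called lower.

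Over all 7 lists of pathway genes, 77 symbols were listed and 54 reached 1 FPKM. Of these 54, the numbers called higher on days 3, 6 and 9 were 14, 16 and 17, and those called lower were 1, 2 and 2. Over all symbols, 8.13%, 9.01% and 9.6% were higher and 5.3%, 6.42% and 6.52% lower, the background for each list that follows. The median log2 ratio of the 54 genes was 0.60, 0.63 and 0.67. The list of other family ligands held 8 listed symbols, of which only ANGPTL6 reached 1 FPKM (3.84 on day 0 and 2.16 on day 9), and 0 were called.

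Among the class 3 semaphorins and plexins, the other ligands of the neuropilins and their signalling partners, 10 of 12 reached 1 FPKM. SEMA3A (6.75, 18.3, 17.8 and 19.4 FPKM) and SEMA3B (4.05, 20.9, 15.4 and 17.5 FPKM) were called higher on all later days. These are repulsive cues that compete with VEGF forms for neuropilins. The numbers called higher in this list were 4, 2 and 2 on days 3, 6 and 9, and 0 were called lower.

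In the HIF pathway, which links oxygen supply to VEGFA and ANGPTL4 transcription, 8 of 10 genes reached 1 FPKM. EPAS1, which encodes HIF-2 alpha, had 28.8, 80.6, 103 and 119 FPKM, and ARNT2, a partner of the alpha subunits, had 2.54, 9.88, 12.9 and 11.4. These 2 were called higher on all later days and 0 were called lower. HIF1A was the most abundant gene of the list, with 142 FPKM on day 0 and 229 on day 9, within the limit. The list's median log2 ratio on day 9 was 0.27.

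Among genes of ligand processing, ANGPTL4 targets and the PPAR receptors, 9 of 13 reached 1 FPKM, of which 1, 2 and 1 were called higher on days 3, 6 and 9 and 1, 2 and 2 lower. HSPG2, the proteoglycan perlecan, was called higher on all later days (50.8 FPKM on day 0 and 127 on day 9). PCSK7, a proprotein convertase, was called lower on all later days (57.8 and 22.7 FPKM). FURIN, another convertase, named outside the rule, had 35.2, 17.4, 16.1 and 16.8 FPKM and was called lower on days 6 and 9 (-1.08 and -1.03). Of the other angiogenic growth factors, 11 of 14 reached 1 FPKM, and 3, 4 and 5 were called higher on days 3, 6 and 9. ADM, which encodes adrenomedullin, had 30.7 FPKM on day 0 and 92.0 on day 9, and FGF2 had 40.3 and 104, and both passed the limit on every day.

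Of 10 angiogenesis inhibitors with at least 1 FPKM, the numbers called higher on days 3, 6 and 9 were 4, 5 and 6, and 0 were lower, with a median log2 ratio of 1.19 on day 9. ADAMTS1, a protease that can sequester VEGFA, had 33.9, 222, 253 and 282 FPKM. THBS2, which encodes thrombospondin-2, had 13.9, 80.3, 66.7 and 54.7. COL18A1, the source of endostatin, was inside the limit on every day, with 31.2 FPKM on day 0 and 30.1 on day 9, as were SERPINF1, SPRY2 and SPRY4. VASH2 had 1.17 FPKM on day 0 and 3.97 on day 9, and is a vasohibin for which promotion of vessel growth is also described. VASH1, outside the naming rule and named to complete the 4 genes higher on all days, had 2.41 and 6.92.

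**Figure D4:**
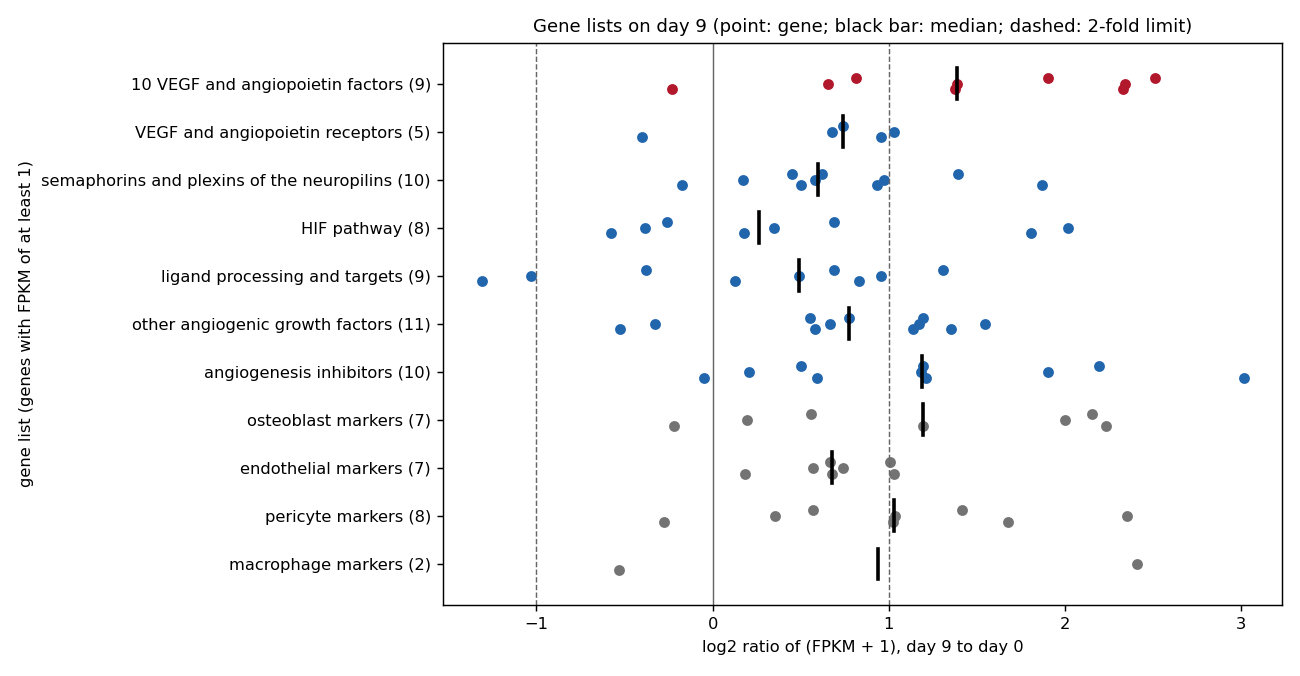
Log2 ratio of (FPKM + 1), day 9 to day 0 (horizontal axis), for genes with at least 1 FPKM in the 10 factors (red), pathway lists (blue) and cell type markers (grey), with the number of genes in brackets. Each point is a gene from 1 library a day and each black bar a median, which is 1.39 for the factors, 1.19 for angiogenesis inhibitors and 0.74 for the receptors; the list of other family ligands, with 1 such gene, is not drawn.

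The cell type label was read against marker genes. Of 13 osteoblast markers, 7 reached 1 FPKM, led by COL1A1 (777, 1974, 1587 and 1146 FPKM), SPARC (1113 to 1469), COL1A2 (125 to 856) and RUNX2 (7.37, 26.2, 19.3 and 18.2). The other 3 were ALPL (0.294, 4.32, 4.35 and 4.18 FPKM), SPP1 (0.794, 1.89, 5.14 and 7.45) and DLX5 (1.72, 2.63, 2.12 and 1.34). Of the 7, the numbers called higher on days 3, 6 and 9 were 4, 5 and 4, and 0 were lower. ALPL and SPP1, under 1 FPKM on day 0, could not be called lower. SP7, BGLAP, IBSP, DMP1, BMP2 and PHEX, several of them markers of mature osteoblasts and osteocytes, stayed under 1 FPKM in every library. The summed level of the 12 endothelial markers was 26.8 FPKM on day 0 and 35.6 to 41.0 later, most of it from EGFL7 and TEK. Of the 12, 7 reached 1 FPKM, 0, 2 and 2 were called higher on days 3, 6 and 9, and 0 were lower, and 3 are also in the receptor list. CLDN5, ERG, KDR, ROBO4 and TIE1 were under 1 FPKM on day 0. They passed the filter only through later libraries and could not be called lower. CLDN5 had 0.563, 2.12, 2.21 and 1.32 FPKM and passed the limit on day 6 (1.04), and ERG had 0.40, 0.321, 1.34 and 1.82 FPKM and passed it on day 9. The defining endothelial genes PECAM1, CDH5 and VWF were at most at 0.262, 0.255 and 0.251 FPKM. The 8 pericyte markers summed to 111 FPKM on day 0 and to between 194 and 208 later. All 8 reached 1 FPKM, the numbers called higher on days 3, 6 and 9 were 5, 3 and 5, and 0 were lower. KCNJ8, under 1 FPKM on day 0, could not be called lower. RGS5, NOTCH3 and KCNJ8 were higher on all later days, and RGS5 had 1.29, 6.08, 9.60 and 10.7 FPKM. MCAM lay below day 0 throughout, inside the limit, with 24.3, 17.1, 15.3 and 19.9 FPKM. The part of such cells or states in the levels of the 10 genes was not tested. Of the 6 macrophage markers, CD68, which encodes a lysosomal protein of many cells, had 16.2, 37.5, 65.1 and 90.6 FPKM and was the 1 called higher on every later day. CD14 had 1.07, 0.398, 0.632 and 0.428 FPKM, inside the limit, and PTPRC, CSF1R, LYZ and AIF1 stayed under 1.

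Genes with the most similar course were found by the distance between the 3 log2 ratios to day 0, which rest on 4 libraries and share day 0. Nearest to VEGFA were CDH8, a cadherin (distance 0.08), P4HA3, a collagen prolyl hydroxylase (0.08), and KIF5C, a kinesin (0.12). The level of each of these 3 was under 1 FPKM on day 0 and at most 10.95 on day 9. The likeness is thus in the ratio of (FPKM + 1), and neither in the level nor in the fold of FPKM itself. P4HA3, for instance, had 0.431 FPKM on day 0 and 7.37 on day 9, a larger fold than that of VEGFA. Nearest to NRP1 were GJA1, the gap junction gene of connexin 43 (0.02), RAD51B (0.08) and APLP2 (0.09). GJA1 had 55.2, 102, 136 and 146 FPKM. Nearest to ANGPTL4 were CST1 (0.24), AMPD3 (0.26) and TRAF1 (0.31), and AMPD3 had 2.68, 3.99, 10.9 and 17.8 FPKM. CST1 had 0, 0.183, 1.37 and 4.16 FPKM, so its likeness rests on the added 1 FPKM. TRAF1 had 0.834 FPKM on day 0 and 6.70 on day 9. Nearest to ANGPT1 were PCYOX1 (0.02), SMPD1 (0.04) and FAM89B (0.05). PCYOX1 had 27.2 FPKM on day 0 and 43.1 on day 9, and ANGPT1 had 0.583 and 1.497, so this likeness too rests on the added 1 FPKM.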

How the data were processed

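Total RNA of hFOB 1.19 cells was depleted of ribosomal RNA and sequenced as directional libraries, 1 for each of 4 time points, which were assigned by the day in the sample titles. RNase R is described for the mRNA libraries; whether it was applied to them was not tested. Reads were aligned with Bowtie and TopHat. The submitters' processing notes list Bowtie 0.12.2 and the mouse build mm8, and the build and the program behind the mRNA values are not given in the sources used here, so no gene coordinates are taken from them. FPKM per transcript were deposited by the authors.

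FPKM were summed per symbol (Python 3.11.15, pandas 2.3.3, numpy 2.4.6, matplotlib 3.10.9). Log2 ratios were taken after 1 FPKM was added, which understates the change of low genes. Genes under 1 FPKM in all libraries were left out of the counts, and the limit was 2-fold. With FPKM, no count model was run. The rule was tested on simulated data. All 10 gene IDs matched the same symbol in a table of gene names. The genes, lists and tests were chosen with earlier results of these data known. Named were all 10 genes, the receptors, at most 3 genes a list past the limit on all later days, leading and absent markers (others, and the inhibitors inside the limit, were named after their values were seen), and the 3 genes nearest to VEGFA, ANGPT1, ANGPTL4 and NRP1. 7 alternatives were tried. The lncRNA and circRNA tables and the 9 tables of the authors' own comparisons (fold changes, p-values and q-values) were not used.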

Additional observations from a re-analysis of the deposited data

How the results depend on the processing

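No paired analysis was possible because the days have a single library each, and for the same reason none could be left out. The alternatives were another pseudocount (0.1 FPKM), no filter or at least 5 FPKM, a 4-fold limit, libraries rescaled to the same sum or the same median, and the leading transcript alone. With the 4-fold limit, stricter by construction, 1 member was higher on day 3 (ANGPTL2), 3 were on day 6 (VEGFA, ANGPTL2 and NRP2) and 3 on day 9 (VEGFA, ANGPTL4 and NRP2), 0 were called between later days, and 3 pathway genes in place of 19 were called on day 9. The number of members called lower on days 3, 6 and 9 was 0 under each alternative; under the 0.1 FPKM pseudocount, ANGPT2, which is not counted, had a log2 ratio of -1.20 on day 9. No log2 ratio past the limit changed its sign. PGF on day 3 was inside the limit with the leading transcript alone (0.95). Rescaling to the same sum moved the median log2 ratio of all symbols on day 3 from -0.08 to 0.10. It changed the share of all symbols called higher from 8.13% to 10.9% and lower from 5.3% to 3.10%. Depth per gene is not known, so no counting error can be given for ANGPT1 and ANGPT2, at or under 1.497 FPKM.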
